A study of Mus musculus with 8 samples.

Results

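Primary fibroblasts grown from mouse embryos that carry 1 intact Tfam allele and no Zbp1 (Tfam+/-Zbp1-/-, called the double mutant here) were compared with wild-type (WT) fibroblasts by RNA sequencing. The comparison took every library labelled with either genotype, 2 each, which is 4 of the 8 libraries of the series. The other 4 libraries are Tfam+/- (2) and Zbp1-/- (2), and their values are given beside those of the double mutant as context. According to the labels and the design text of the series, the cells were made from embryos at embryonic day 14, were grown for 2 passages, received no treatment, and gave total RNA. The sources used here do not give the mouse strain, the alleles, the number of embryos behind a culture, or whether replicate libraries are from different embryos. The p-values therefore measure the spread between these libraries, which may be technical.

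Tfam encodes the mitochondrial transcription factor A, which packages mitochondrial DNA into nucleoids and is needed for its transcription and copying. Cells with a single working copy are known for abnormal nucleoids and for mitochondrial DNA that can reach the cytosol, where nucleic acid sensors can start a type I interferon response. ZBP1 is a sensor that binds nucleic acids in the left-handed Z form, is itself induced by interferon, and can pass signals to RIPK1, RIPK3 and MLKL, the kinases and the executor of necroptosis. Embryonic fibroblast cultures are mixtures of mesenchymal cells from the limbs, trunk and head, so their HOX genes and other positional transcription factors also report which parts of the embryo the cells came from.

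The deposited values are normalized counts, not scaled to gene length, so levels are compared between libraries and never between genes. The 4 libraries held 17091385 to 18076456 normalized counts. Replicates of these 2 genotypes were very close. For genes of 10 to 1000 normalized counts, the median squared difference between replicates was 1.21 times the value that counting error alone would give in WT and 1.16 times in the double mutant, against 11.5 times in Tfam+/- and 9.81 times in Zbp1-/-. The replicates differed by more than counting error and were kept as 2 samples, but their spread is little wider than that of repeat sequencing. A second yardstick is therefore given, a fit over all 8 libraries, in which the wider spread of the Tfam+/- and Zbp1-/- replicates enters the error. From earlier work on these data, 2 libraries of those genotypes are known to be shifted together, which widens that error. The shift also enters the values of those genotypes given below as context. Where the result of the 8-library fit is not given for a gene below, that fit need not have called the gene. The median change of all genes was 0.12 on the log2 scale, and it was 0.01 after rescaling the libraries by the trimmed mean of M-values. Changes are printed as measured, and a list's median is also given relative to that shift.

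Of 13267 genes with a mean of at least 10 normalized counts, 1027 (7.74%) were called changed, at a Benjamini-Hochberg adjusted p under 0.05 and a change of at least 1.5-fold. Of these, 651 (4.91% of the genes tested) were higher and 376 (2.83%) lower in the double mutant, and 250 and 157 of them were at least 2-fold higher or lower. After rescaling, the split was 443 higher (3.34%) and 464 lower (3.50%), so the share of calls that were higher went from 63.4% to 48.8%. A total of 818 genes were called both before and after rescaling. The adjusted p alone, with no fold minimum, was under 0.05 for 5935 genes (44.7%), which is why a fold minimum was part of the call. In the fit of all 8 libraries 181 genes (1.36%) were called, 119 higher and 62 lower, and all of them were among the 1027. A change "called in both fits" below passed in the 4-library and in the 8-library fit.

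**Figure D1:**
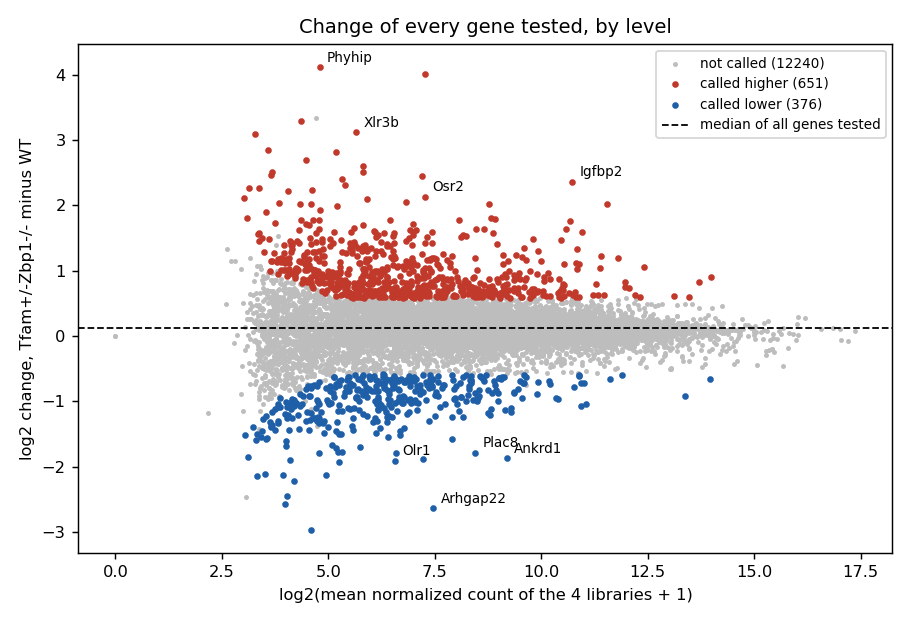
Log2 change of each of 13267 genes in Tfam+/-Zbp1-/- against WT (vertical axis) by the log2 of its mean normalized count over the 4 libraries plus 1 (horizontal axis). Red points are the 651 genes called higher, blue points the 376 called lower and grey points those not called. The dashed line is the median change, 0.12, which lies above 0.

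The targeted genes came first. Tfam (chromosome 10, 71225468 to 71238328, mm10) had 629 and 610 normalized counts in WT and 424 and 375 in the double mutant, between the 278 and 365 of Tfam+/- and the 675 and 471 of Zbp1-/-. Both double mutant libraries were below both WT libraries and above those of Tfam+/-. The log2 change against WT was -0.63 ± 0.07 (SE, adjusted p 1.6e-06), the direction the label calls for. It was -0.55 without double mutant replicate 2, under the 1.5-fold minimum, and the fit of all 8 libraries gave an adjusted p of 0.26. Zbp1 (chromosome 2, 173206612 to 173218959) had 7.34 and 3.19 normalized counts in WT and 0.862 and 2.69 in the double mutant. Its transcript was thus near the lower limit of the measurement already in WT, and the log2 change of -1.17 ± 0.68 was not called (adjusted p 0.17). That value was -0.68 without WT replicate 1 or double mutant replicate 1, -1.67 without WT replicate 2 or double mutant replicate 2, and -0.58 with a pseudocount of 5. The Tfam+/- libraries held 64.6 and 69.8 and the Zbp1-/- libraries 3.79 and 1.03. These low WT levels mean that Zbp1 cannot check the label of the double mutant against WT.

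Genes that act with ZBP1 or with mitochondrial DNA were called at shares near or below the 7.74% of all genes. Of 13 tested ZBP1 partners and necroptosis genes, 1 (7.69%) was called, and 0 were called in the 8-library fit. That gene was Nlrp3, a sensor that assembles an inflammasome, with 11.7 and 18.4 normalized counts in WT and 3.75 and 5.84 in the double mutant. Its log2 change was -1.46 ± 0.45 (adjusted p 0.015), and the call was lost without WT replicate 2 (-1.15) and without double mutant replicate 1 (-1.20). The kinase gene Ripk3 had 1283 and 1273 in WT and 1298 and 1202 in the double mutant, and Mlkl had 234 and 250 against 250 and 258. Those values overlapped between the genotypes for both genes, with log2 changes of -0.03 ± 0.04 and 0.07 ± 0.09, neither called. After rescaling the Mlkl change was -0.04, and without double mutant replicate 2 the Ripk3 change was 0.02. Of 37 genes for the upkeep and expression of mitochondrial DNA 2 (5.41%) were called. Tfam was called lower and Endog, which encodes a mitochondrial nuclease, higher (log2 change 0.62 ± 0.20, adjusted p 0.021). The Endog call was lost after rescaling (0.50), in the 8-library fit, and without WT replicate 1 (0.59, adjusted p 0.060) or double mutant replicate 2 (0.57).

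None of the 74 tested nuclear genes for subunits of oxidative phosphorylation was called. Their median change was 0.17, which is 0.04 above that of all genes, and 73 of 74 were above 0, beside 10059 of all 13267 genes. No member was called among 33 genes of the integrated stress response (median 0.03), 40 cell cycle genes (median 0.22) or 24 genes of cholesterol synthesis and uptake (median 0.19). In the 8-library fit none of these 4 lists had a called member either. By limma's unadjusted p alone, under 0.05 and with no fold minimum, 63 genes of oxidative phosphorylation were higher and 0 lower. The same count was 5 and 5 in the stress response, 31 and 0 in the cell cycle and 21 and 1 in the cholesterol list, all at changes under 1.5-fold. Over all 13267 genes tested that count was 5787 higher and 1199 lower. Among 29 antioxidant genes, the NRF2 target Nqo1, a quinone reductase, was called higher (0.62 ± 0.07, adjusted p 1.6e-06) and the extracellular superoxide dismutase Sod3 lower (-0.76 ± 0.09, adjusted p 3.6e-06). Nqo1 had 460 and 456 in WT and 656 and 753 in the double mutant, and its call was lost after rescaling (0.50) and without double mutant replicate 2 (0.52). Among 21 p53 target and senescence genes, Igfbp7 and Pmaip1 were called lower by values close to the 1.5-fold minimum, -0.60 ± 0.03 and -0.59 ± 0.04. Both fell under that minimum when 1 of the 4 libraries was left out. For Igfbp7 that was double mutant replicate 2 (-0.58), and for Pmaip1 WT replicate 2 (-0.57) or double mutant replicate 1 (-0.58). Neither was called in the 8-library fit.

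The largest rises were in genes of unlike kinds. Named here are the 12 called genes with the largest rise among those whose libraries did not overlap and whose higher genotype mean was at least 50 normalized counts, and all 12 were called in both fits. Phyhip (chromosome 14, 70457517 to 70468826), a gene known from brain, had 0.953 and 3.62 normalized counts in WT and 51.2 and 51.2 in the double mutant. Zbp1-/- was as high, at 60.4 and 65.3, while Tfam+/- was low, at 4.83 and 1.92. The log2 change was 4.12 ± 0.43 (adjusted p 9.7e-07), on a scale that understates changes from such low levels. Xlr3b, an imprinted gene of a family of near-identical X-linked copies whose reads may be shared among them, went from 8.14 and 10.7 to 81.7 and 97.1 (3.12 ± 0.26). Sostdc1, a secreted antagonist of BMP and Wnt signals, went from 8.18 and 7.8 to 61.6 and 62.9 (2.81 ± 0.28). For these 3 genes the WT libraries were the low ones of the whole set or shared that place with Tfam+/-.

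H60b, which encodes a ligand of the NKG2D receptor of natural killer cells, differed from these in that the double mutant alone was high. It had 16.2 and 13.6 in WT, 95.5 and 95 in the double mutant, 9.86 and 22.7 in Tfam+/- and 19.8 and 17.2 in Zbp1-/- (2.6 ± 0.23, adjusted p 9.4e-08). Igfbp2 (chromosome 1, 72824480 to 72852474), an insulin-like growth factor binding protein, had 534 and 563 in WT and 2793 and 2864 in the double mutant. Its log2 change of 2.36 ± 0.04 (adjusted p 1.6e-16) was the most precise of the 12, and the gene was above WT in both other genotypes too, at 1768 and 1063 in Tfam+/- and 2365 and 3741 in Zbp1-/-. The synaptic genes Rims2, for a presynaptic scaffold, and Lrrtm3, for a synaptic adhesion protein, rose by 2.52 ± 0.27 and 2.45 ± 0.18. The urea transporter gene Slc14a2 rose by 2.41 ± 0.26, the hydrolase gene Abhd1 by 2.31 ± 0.26, and Cdsn, for the skin adhesion protein corneodesmosin, by 2.10 ± 0.21. Osr2 and Bmp3 complete the 12 and are described with their families below.

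The 12 largest falls were chosen by the same rule, and 8 of them were called in both fits. Arhgap22 (chromosome 14, 33213994 to 33369936), which encodes a GTPase-activating protein for Rac, had 310 and 299 normalized counts in WT and 44.9 and 51.2 in the double mutant. It was 382 and 306 in Tfam+/- and 58.6 and 66.1 in Zbp1-/-, so both genotypes without Zbp1 were low. The log2 change was -2.64 ± 0.13 (adjusted p 7.2e-11). Ankrd1 (chromosome 19, 36111965 to 36119844), a well known target of the mechanosensitive coactivators YAP and TAZ, had 903 and 928 in WT, 256 and 245 in the double mutant, 1198 and 1218 in Tfam+/- and 331 and 346 in Zbp1-/- (-1.87 ± 0.06, adjusted p 5.9e-13). Kcnmb1, the beta subunit of a calcium-activated potassium channel of smooth muscle, fell from 60.2 and 48.7 to 15.5 and 16.1 (-1.72 ± 0.25). In these 3 genes the double mutant was below the Zbp1-/- libraries, and all 3 were called in both fits.

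Plac8, Podxl and Emcn were low mainly in the double mutant or lowest there. Plac8 had 546 and 529 in WT, 146 and 166 in the double mutant, 524 and 437 in Tfam+/- and 397 and 457 in Zbp1-/- (-1.78 ± 0.09). Podxl, for the cell surface sialomucin podocalyxin, had 137 and 155 in WT, 112 and 121 in Zbp1-/- and 56 and 30.5 in the double mutant (-1.79 ± 0.22). Emcn, the endothelial sialomucin endomucin, had 65.5 and 57 in WT and 18.9 and 15.7 in the double mutant (-1.77 ± 0.24). Map3k7cl (-1.88 ± 0.13) and the keratin gene Krt20 (-1.77 ± 0.27) also fell in both fits. The remaining 4 were not called in the 8-library fit. They were Mcpt8, a basophil protease (-1.93 ± 0.32), Ms4a2, the beta chain of the high-affinity IgE receptor of mast cells (-1.69 ± 0.22), Olr1, a receptor for oxidised lipoprotein (-1.91 ± 0.16), and Tnfrsf26 (-1.67 ± 0.28). Without the mean-variance trend Mcpt8 was not called either (adjusted p 0.059). Leukocyte markers as a list fell in the same libraries, with values given further on, and their part in these changes was not tested.

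**Figure D2:**
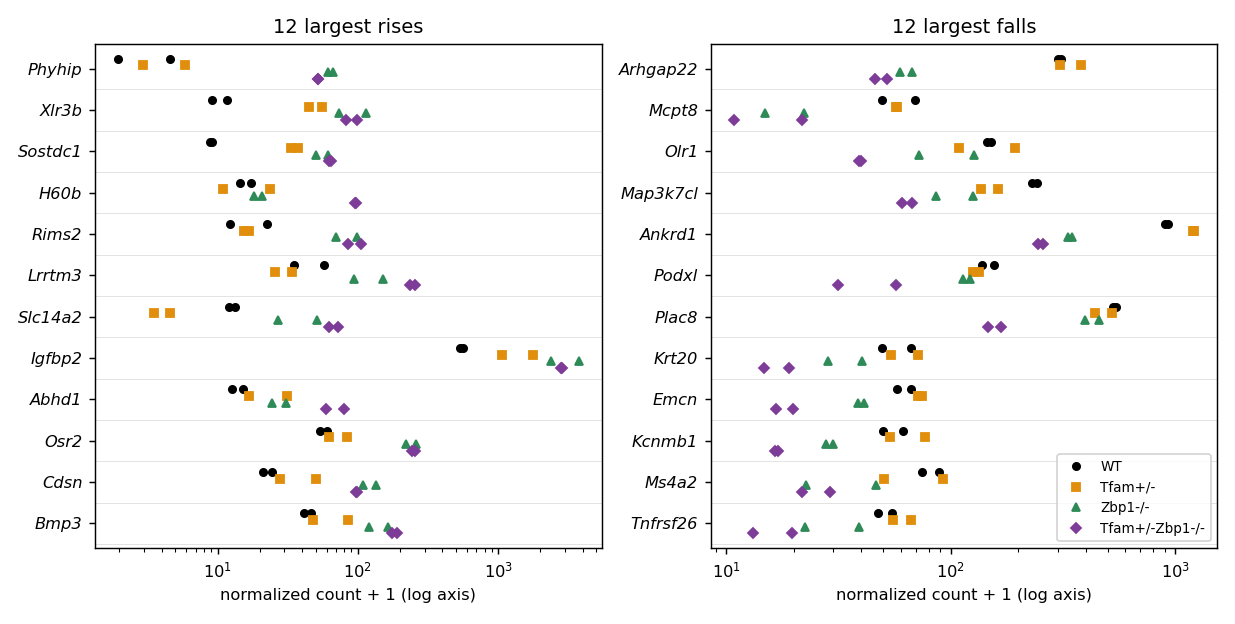
Normalized count plus 1 (log axis) in every library for the 12 largest rises (left) and the 12 largest falls (right), with each point 1 library and the 4 genotypes set apart by colour and shape. The 2 double mutant libraries lie on 1 side of the 2 WT libraries in every row. In Arhgap22 and Ankrd1 the Zbp1-/- points lie near the double mutant ones, and in H60b and Plac8 they lie near WT.

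The HOX genes, which record position along the body and limb axes, divided by cluster and paralog number. Of 34 tested, 26 were called, 19 lower and 7 higher, where 2.83% and 4.91% of all genes were called lower and higher. The median change was -0.73, or -0.85 relative to all genes. All 8 tested Hoxb genes, Hoxb2 to Hoxb9, were called lower, between -1.06 and -0.77. All 5 tested Hoxc genes of groups up to 9 were called lower, between -1.01 and -0.68, as was Hoxc10 at -0.80 ± 0.12. In the Hoxa cluster, 5 of 8 genes of groups 1 to 9 were called lower, from Hoxa3 to Hoxa7, while Hoxa11 and Hoxa13 were called higher. In the Hoxd cluster the direction was upward, with all 4 genes of groups 10 to 13 called higher, between 0.84 and 1.10, and Hoxd4 as well.

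The values of single HOX genes were well separated in most cases. Hoxa13 (chromosome 6, 52258853 to 52260880), a gene of the distal limb and the hind end of the trunk, had 53.8 and 49.2 normalized counts in WT and 125 and 132 in the double mutant (1.30 ± 0.16, adjusted p 4.5e-06). Hoxd13 (chromosome 2, 74668225 to 74671603), another gene of the distal limb and named after its values were seen, had 998 and 871 in WT, 1959 and 2053 in the double mutant, 367 and 499 in Tfam+/- and 839 and 531 in Zbp1-/- (1.10 ± 0.05, adjusted p 4.5e-11). In both genes the double mutant was above every other library. Hoxa5 had 239 and 265 in WT, 113 and 101 in the double mutant, 127 and 136 in Tfam+/- and 152 and 121 in Zbp1-/- (-1.23 ± 0.12, adjusted p 2.6e-07), so here WT stood apart from all mutants. Hoxb9, also named after its values were seen, had 836 and 852 in WT, 471 and 457 in the double mutant, 935 and 883 in Tfam+/- and 992 and 960 in Zbp1-/- (-0.86 ± 0.06). Here the double mutant stood apart from the other 6 libraries. Hoxa6 fell by 1.17 on the log2 scale (SE 0.27), from 36.2 and 39.8 to 17 and 15.7. Hoxa4 was called at -1.25 ± 0.41 but rested on double mutant replicate 2, with 25.3 and 7 in the pair, and was -0.39 without it. In the 8-library fit 7 HOX genes were called lower and 1, Hoxd11, higher, and after rescaling 19 were lower and 5 higher, with Hoxa11 and Hoxd4 no longer called.

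**Figure D3:**
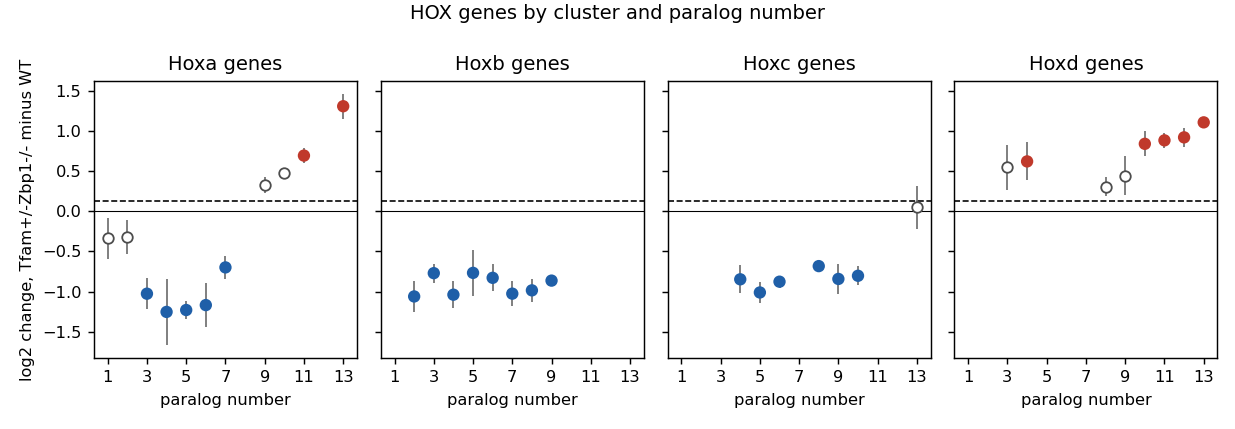
Log2 change in Tfam+/-Zbp1-/- against WT of the tested HOX genes (vertical axis) by paralog number (horizontal axis) in each cluster, with bars of 1 SE. Filled red and blue points are called higher and lower and open points are not called, and the dashed line is the median of all genes, 0.12. The Hoxb genes and the Hoxc genes of groups 4 to 10 lie below 0. Hoxa genes of groups 3 to 7 lie below 0 and those of groups 9 to 13 above it, and all tested Hoxd genes lie above 0.

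Other positional and patterning factors were also called in both directions. Of 64 tested transcription factors of limb, face and other mesenchyme, 27 (42.2%) were called higher and 7 (10.9%) lower, beside 4.91% and 2.83% of all genes, with a median of 0.46 (0.34 relative to all genes), and 22 and 9 after rescaling. In the 8-library fit 9 were higher and 1 lower. Osr2, a zinc finger factor of joints and palate, had 59.4 and 53 in WT, 255 and 244 in the double mutant, 82.3 and 61.3 in Tfam+/- and 219 and 259 in Zbp1-/- (2.13 ± 0.13). Tfap2b, an AP-2 factor of neural crest and limb, had 165 and 177 in WT and 701 and 688 in the double mutant, with 382 and 324 in Zbp1-/- (2.02 ± 0.08, adjusted p 2.1e-12). Msx1, a homeobox factor induced by BMP signals in limb and face, went from 231 and 202 to 742 and 757 (1.79 ± 0.08). Tbx4, the T-box factor of the hindlimb, went from 111 and 129 to 400 and 423 (1.77 ± 0.10). In each of these 4 genes the Zbp1-/- libraries were also above WT, and all 4 were called in both fits.

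Among the factors called lower were Gata4 and Wt1. Gata4, a factor of heart and visceral mesoderm, was at 33.3 and 31.9 in WT and 15.2 and 10.8 in the double mutant (-1.28 ± 0.30). Wt1, a factor of the mesothelium and the urogenital ridge, went from 104 and 127 to 41.1 and 56.4 (-1.24 ± 0.19). The libraries of the 2 genotypes did not overlap in either gene, and neither was called in the 8-library fit (adjusted p 0.10 for Gata4 and 0.056 for Wt1). Some markers of mesothelium and epithelium were also lower in the same libraries. Upk3b, a marker of mesothelium, had 613 and 611 in WT and 280 and 284 in the double mutant (-1.11 ± 0.07), and the keratin gene Krt18 went from 157 and 160 to 57 and 61 (-1.41 ± 0.14). Mpzl2, an epithelial adhesion gene, had 46.8 and 36.9 in WT and 4.88 and 4.05 in the double mutant (-2.96 ± 0.35). Of 11 tested epithelial and keratinocyte markers these 3 (27.3%) were called lower, in both fits, beside 2.83% of all genes. Dsp (9.09%) was called higher in the 4-library fit, beside 4.91% of all genes. The other 7, with Msln, Krt7, Krt8 and Krt19 among them, were not called. The median of the list was 0.06 (-0.06 relative to all genes), and 6 of 11 lay above 0. By limma's unadjusted p alone 2 were higher and 3 lower, beside 5787 and 1199 of all 13267 genes. The summed level of the 20 markers in the table was nearly flat, 3109 to 3133 in WT and 3083 to 3099 in the double mutant, with 1 marker at 0 in all 8 libraries. The part of other cell types in the changes of these factors was not tested.

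Ligands, antagonists and targets of Wnt, BMP, hedgehog and FGF signalling were called in both directions. Of 64 tested, 17 (26.6%) were called higher and 4 (6.25%) lower, beside 4.91% and 2.83% of all genes, with a median of 0.33 (0.21 relative to all genes), 16 and 4 after rescaling, and 6 and 1 in the 8-library fit. Among ligands, Bmp3 had 45.2 and 40.4 in WT and 188 and 174 in the double mutant (2.06 ± 0.15), and Bmp4 579 and 556 against 1081 and 1192 (1.00 ± 0.06). Wnt2b went the other way, from 137 and 114 to 35.6 and 49.5 (-1.55 ± 0.19). Among secreted modulators, Sfrp2, which binds Wnt proteins, had 194 and 205 in WT, 700 and 705 in the double mutant, 169 and 170 in Tfam+/- and 550 and 539 in Zbp1-/- (1.81 ± 0.07, adjusted p 4.4e-12). Rspo2, which amplifies Wnt signals, went from 220 and 245 to 686 and 696 (1.57 ± 0.07). Of Wnt targets that act as feedback inhibitors, Axin2 and Notum were called higher, while Nkd1 (-0.14 ± 0.20, adjusted p 0.58) and Nkd2 (0.26 ± 0.11, adjusted p 0.058) were not called. Axin2, part of the complex that degrades beta-catenin, had 53.8 and 70.4 in WT and 191 and 185 in the double mutant (1.60 ± 0.15), and Notum, a secreted enzyme that inactivates Wnt proteins, 14.5 and 4.62 against 37.4 and 36.8 (2.03 ± 0.40). Notum was not called in the 8-library fit or without the mean-variance trend (adjusted p 0.080). Bmp3, Bmp4, Wnt2b, Sfrp2, Rspo2 and Axin2 were called in the 8-library fit. The 3 lower genes beside Wnt2b were Rspo1, Bmp5 and Fgf2.

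Some genes of the extracellular matrix rose, among them Prg4 and Eln, while the change of Col1a1 was near the shift of all genes. Of 42 tested matrix proteins other than collagens, 9 (21.4%) were called higher and 1 (2.38%) lower, beside 4.91% and 2.83% of all genes, and 4 and 0 in the 8-library fit. Prg4, the lubricant of joint surfaces, had 182 and 211 in WT, 600 and 627 in the double mutant, 106 and 125 in Tfam+/- and 188 and 144 in Zbp1-/- (1.64 ± 0.08, adjusted p 9.4e-11), which was above every other library. Eln, for elastin, went from 1623 and 1619 to 3764 and 3846 (1.23 ± 0.03, called in both fits), with 2982 and 4382 in Zbp1-/-. Comp (1.54 ± 0.22), Matn4 (1.35 ± 0.23) and Hapln1 (1.31 ± 0.18), all known from cartilage, were called in the 4-library fit and not in the 8-library fit. Spp1, for osteopontin, was lower, at 19343 and 19490 in WT and 12149 and 12394 in the double mutant (-0.66 ± 0.02), and was not called in the 8-library fit. Of 38 tested collagens, 4 (10.5%) were called higher and 2 (5.26%) lower, beside 4.91% and 2.83% of all genes. Col10a1, a collagen of hypertrophic cartilage, had 480 and 462 in WT and 1341 and 1295 in the double mutant (1.48 ± 0.05, called in both fits). Col1a1, the main collagen of fibroblasts, was 126351 and 126567 against 138770 and 134787, a log2 change of 0.11 ± 0.01 beside the 0.12 of all genes.

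Of 32 matrix proteases and their inhibitors, 4 (12.5%) were called higher and 3 (9.38%) lower, beside 4.91% and 2.83% of all genes. Adamts16 went from 5.8 and 4.59 to 19.5 and 19.4 (1.73 ± 0.40), and Adamts3, which processes procollagen, from 72.2 and 77.4 to 173 and 172 (1.19 ± 0.13). The metalloproteinase genes Mmp9 and Mmp12, both known from macrophages as well as from other cells, fell, Mmp9 from 48 and 37.3 to 18.4 and 11.5 (-1.48 ± 0.30) and Mmp12 from 73.9 and 63.6 to 25.9 and 23.8 (-1.43 ± 0.22). Mmp9 was not called in the 8-library fit. Among 20 tested genes of cartilage, joint and bone, 4 were called higher and 3 lower (20% and 15%, beside 4.91% and 2.83% of all genes). Their median was 0.07 (-0.05 relative to all genes). The higher ones beside Prg4 and Comp were Erg, an ETS factor of joint cartilage and endothelium (1.05 ± 0.10), and Gdf5, a ligand that marks forming joints (1.14 ± 0.28, not called in the 8-library fit). The lower ones beside Spp1 were the collagen gene Col2a1 (-0.69 ± 0.05) and Gdf6 (-0.70 ± 0.12), neither called in the 8-library fit. Acan (-0.04 ± 0.24) and Sox9 (0.06 ± 0.08) were not called.

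Genes of contractile fibroblasts that were called all fell. Of 26 tested myofibroblast and contractile genes, 7 (26.9%) were called lower, beside 2.83% of all genes, and 0 higher, beside 4.91%, the median was -0.23 (-0.35 relative to all genes), and 5 of 26 lay above 0, each of them with an unadjusted p under 0.05. Of all 13267 genes tested, 10059 lay above 0. In the 8-library fit 4 were called lower and 0 higher, and after rescaling 8 and 0. Itga11, a collagen receptor of myofibroblasts, had 2668 and 2596 normalized counts in WT, 1229 and 1279 in the double mutant, 2209 and 1689 in Tfam+/- and 2384 and 2794 in Zbp1-/- (-1.07 ± 0.04, adjusted p 5.9e-13). Loxl2, a lysyl oxidase that cross-links matrix, had 13814 and 13846 in WT and 7390 and 7267 in the double mutant (-0.92 ± 0.02), with 12237 and 12629 in Zbp1-/-. Both genes were lowest in the double mutant. Myh11, the smooth muscle myosin heavy chain, went from 908 and 875 to 525 and 486 (-0.82 ± 0.06), and Cnn1, for calponin, from 2451 and 2437 to 1448 and 1522 (-0.72 ± 0.04, not called in the 8-library fit). Acta2, the smooth muscle actin that defines myofibroblasts and named after its values were seen, was 61283 and 60033 in WT against 44127 and 43827 in the double mutant. That change of -0.46 ± 0.02 was under the 1.5-fold minimum. Of 11 tested adipocyte and pericyte markers 4 (36.4%) were called lower and 1 (9.09%) higher, beside 2.83% and 4.91% of all genes. Among those called lower was the pericyte and smooth muscle marker Mcam, from 1695 and 1711 to 863 and 904 (-0.95 ± 0.04, called in both fits).

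Markers of macrophages and other leukocytes were lower as a group. Of 19 tested, 16 (84.2%) were called lower, beside 2.83% of all genes, and 0 higher, beside 4.91%, with a median of -0.93 (-1.05 relative to all genes), and in the 8-library fit 4 were called lower and 0 higher. By limma's unadjusted p alone 17 were lower and 0 higher, beside 1199 and 5787 of all 13267 genes. Lyz2, the lysozyme of myeloid cells, had 2855 and 2844 in WT, 1393 and 1375 in the double mutant, 3445 and 3141 in Tfam+/- and 1625 and 1471 in Zbp1-/- (-1.04 ± 0.03, adjusted p 3.0e-13). The integrin gene Itgam went from 154 and 166 to 78.6 and 60.6 (-1.20 ± 0.15), Laptm5 from 293 and 281 to 139 and 140 (-1.03 ± 0.10), and the complement gene C1qa from 372 and 370 to 164 and 171 (-1.14 ± 0.09, not called in the 8-library fit). The summed level of the 24 markers in the table was 6665 to 6699 in WT, 7913 to 9163 in Tfam+/-, 4313 to 4370 in Zbp1-/- and 3424 to 3455 in the double mutant, with 3 markers at 0 in all 8 libraries. Fewer cells of a type and less RNA per cell cannot be told apart in such libraries. Some complement and sensing genes are macrophage genes as well. Among complement genes, C1qa, C1qb and C1qc were called lower and C4b and Cd55 higher, and Tlr7, a sensor of RNA in endosomes, was at 140 and 139 in WT and 70.9 and 76.4 in the double mutant (-0.91 ± 0.14, not called in the 8-library fit).

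All 12 markers of fibroblasts passed the filter on low values, and their summed level was 544260 to 545477 in WT and 579812 to 586565 in the double mutant. Lum, a matrix proteoglycan, was called higher (1.11 ± 0.04) and Fap, a surface protease of activated fibroblasts, lower (-0.94 ± 0.10), neither of them in the 8-library fit. Of 7 tested endothelial and blood markers, Emcn was called lower and Erg higher (14.3% each, beside 2.83% and 4.91% of all genes). Of 18 tested neural, Schwann and melanocyte markers 3 were called higher and 3 lower (16.7% each, beside 4.91% and 2.83% of all genes). The stem cell factor Sox2 came first among the higher ones (1.23 ± 0.28) and the intermediate filament gene Nes among the lower ones (-0.78 ± 0.04). Of 11 tested skeletal muscle markers 2 were called higher and 2 lower (18.2% each, beside 4.91% and 2.83% of all genes). The 2 lower ones, Acta1 (-0.96 ± 0.08) and Des (-0.69 ± 0.07), kept their call after rescaling, but neither was called in the 8-library fit. The 2 higher ones, Tnni2 and Mef2c, lost their call after rescaling. Tnni2 also lost it without any 1 of the 4 libraries (0.85 to 1.14), and Mef2c without WT replicate 2 (0.54).

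Interferon-stimulated genes, the targets of the response that ZBP1 belongs to, were modestly higher in the double mutant than in WT. Of 76 tested, 22 (28.9%) were called higher, beside 4.91% of all genes, and 0 lower, beside 2.83%, with a median of 0.46 (0.34 relative to all genes), and 71 of 76 were above 0, beside 10059 of all 13267. By limma's unadjusted p alone 54 were higher and 1 lower, beside 5787 and 1199 of all 13267 genes. After rescaling 21 were called higher and 1 lower. In the 8-library fit 3 were called, all higher, where 1.36% of all genes were called. Isg15 (chromosome 4, 156199424 to 156200818), a ubiquitin-like modifier, had 49 and 71.7 normalized counts in WT, 150 and 180 in the double mutant, 1410 and 1038 in Tfam+/- and 80.9 and 103 in Zbp1-/- (1.46 ± 0.17, adjusted p 4.5e-06). The double mutant was above WT and Zbp1-/- and well below Tfam+/-. The 8-library adjusted p of Isg15 was 0.051. Ifit1 (chromosome 19, 34640889 to 34650009), which binds foreign RNA ends, had 120 and 115 in WT, 252 and 258 in the double mutant, 870 and 1375 in Tfam+/- and 153 and 116 in Zbp1-/- (1.11 ± 0.11). It followed the same order of genotypes and was not called in the 8-library fit.

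Usp18, the protease that removes ISG15 from proteins, was called in both fits, with 26.4 and 21.3 in WT, 59.5 and 71.6 in the double mutant, 761 and 625 in Tfam+/- and 35.3 and 44.9 in Zbp1-/- (1.42 ± 0.23, adjusted p 9.6e-05). Irf7, a transcription factor that amplifies interferon production, went from 29 and 44.9 to 67.3 and 82.3 (1.02 ± 0.22), and Ddx60 from 8.39 and 10 to 26 and 28 (1.46 ± 0.33). Neither was called in the 8-library fit, and Irf7 was not called without the mean-variance trend (adjusted p 0.071). The largest changes of the list were in genes of very low level, Ccl5, a chemokine, at 1.96 and 1.86 in WT and 9.46 and 17.7 in the double mutant (2.26 ± 0.53), and Mx1, an antiviral GTPase, at 1.96 and 1.9 against 8.53 and 15.9 (2.11 ± 0.54). Without double mutant replicate 2 their changes were 1.84 and 1.70 and their adjusted p 0.054 and 0.083. Cxcl10, a chemokine of the same response, was not called (0.45 ± 0.22, adjusted p 0.11), with 38.8 and 35 in WT and 58.6 and 43.7 in the double mutant. The summed level of the 79 listed genes in the table was 26993 to 27185 in WT, 32486 to 34678 in Zbp1-/-, 33708 to 34274 in the double mutant and 64544 to 68302 in Tfam+/-. The sums of the double mutant and of Zbp1-/- thus overlapped.

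The promoters of 3 of the called genes are shown because they carry the letters of the element through which interferon-activated factors bind. They were picked for their matches after the calls were known, and Bst2, which encodes the virus-tethering protein tetherin, was called at 0.72 ± 0.08 (277 and 276 in WT, 440 and 472 in the double mutant), but not in the 8-library fit. Each run is the 250 bases before the gene's start in RefSeq (GRCm38.p6, the build also called mm10), written 5′ to 3′ on the gene's strand, and capitals mark matches of GAAANNGAAA or its reverse complement TTTCNNTTTC, overlapping matches included.
Isg15, chr4:156200819-156201068, minus strand: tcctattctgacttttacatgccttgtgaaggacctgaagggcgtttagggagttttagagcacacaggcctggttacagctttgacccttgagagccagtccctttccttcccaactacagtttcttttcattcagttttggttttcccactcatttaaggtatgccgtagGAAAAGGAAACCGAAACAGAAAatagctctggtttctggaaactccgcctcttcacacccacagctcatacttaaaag
Ifit1, chr19:34640639-34640888, plus strand: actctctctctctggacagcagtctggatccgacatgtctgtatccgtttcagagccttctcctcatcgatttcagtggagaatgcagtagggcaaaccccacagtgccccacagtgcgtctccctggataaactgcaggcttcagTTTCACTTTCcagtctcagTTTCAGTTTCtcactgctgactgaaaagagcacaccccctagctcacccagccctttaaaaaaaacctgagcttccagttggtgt
Bst2, chr8:71537473-71537722, minus strand: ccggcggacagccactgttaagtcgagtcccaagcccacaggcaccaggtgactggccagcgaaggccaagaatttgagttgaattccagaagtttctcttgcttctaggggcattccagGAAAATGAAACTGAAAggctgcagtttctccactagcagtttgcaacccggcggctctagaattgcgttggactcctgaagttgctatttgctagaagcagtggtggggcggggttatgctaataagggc
The run before Isg15 held 3 matches and those before Ifit1 and Bst2 held 2 each. Of the 22 called interferon-stimulated genes 14 had a promoter in the RefSeq table, and 8 of these (57.1%) held at least 1 match. Of the list's tested genes that were not called, 17 of 45 (37.8%) held a match, and of all tested genes with a promoter 327 of 10384 (3.15%). Among all 32851 windows of the same length it was 978 (2.98%). A match is a run of letters and was not tested for binding.

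**Figure D4:**
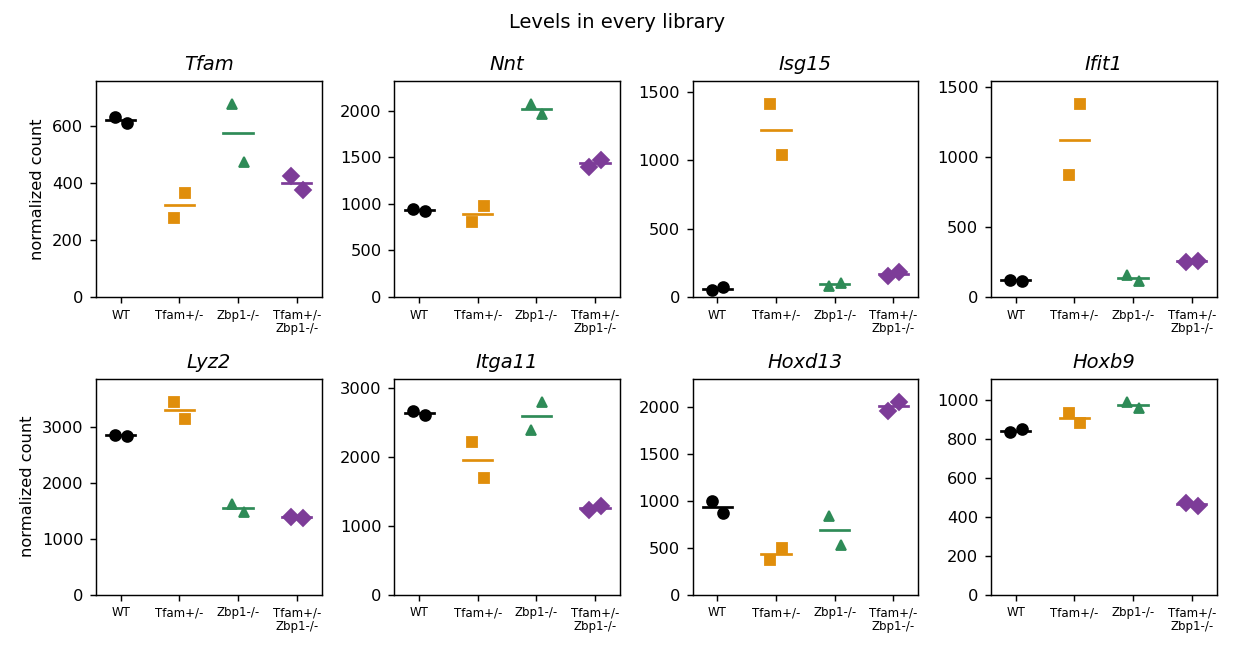
Normalized counts (vertical axes, from 0) of 8 genes in every library, with each point 1 library and each line the mean of a genotype's 2 libraries. The double mutant lies between WT and Tfam+/- in Isg15, Ifit1 and Tfam, and above every other library in Hoxd13. It lies below every other library in Lyz2, Itga11 and Hoxb9.

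Of 32 tested genes that sense nucleic acids 3 (9.38%) were called, near the 7.74% of all genes. Among them 2 were called higher, Socs1, a feedback inhibitor of cytokine signals (35.3 and 43.9 in WT, 84.2 and 82.5 in the double mutant, 1.06 ± 0.19), and Dhx58, and Tlr7 was called lower. In the 8-library fit 0 of the 32 were called. The Dhx58 call was lost without WT replicate 1 (0.65) or double mutant replicate 1 (0.74). Of 39 tested chemokines, cytokines and NF-kB feedback genes 3 were called higher and 3 lower (7.69% each, beside 4.91% and 2.83% of all genes), and 3 and 6 after rescaling. Cxcl15 had 33.7 and 32.2 in WT and 106 and 97.6 in the double mutant (1.60 ± 0.18), and Il1rl1, the receptor of interleukin 33, had 9526 and 9543 against 16822 and 16992 (0.83 ± 0.02). Il6 was lower, from 13.4 and 20.7 to 7.88 and 4.09 (-1.40 ± 0.44, adjusted p 0.016), and lost its call without WT replicate 2 or without double mutant replicate 2. None of the 39 was called in the 8-library fit.

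**Figure D5:**
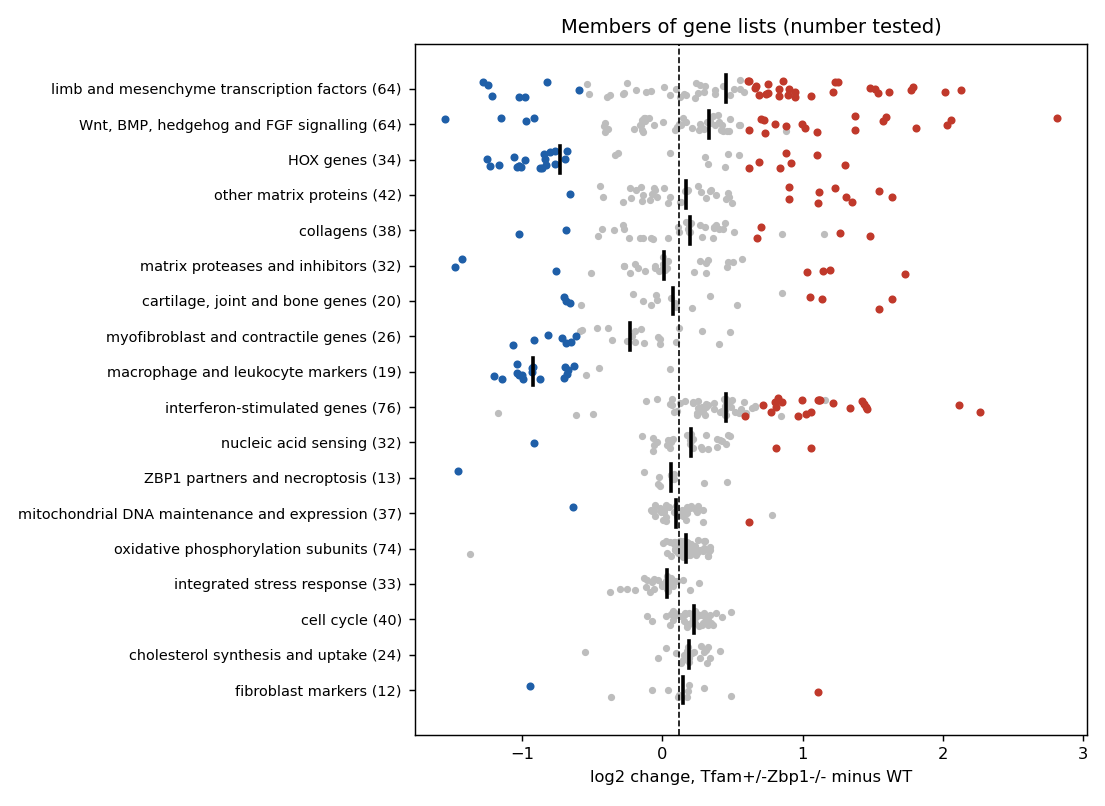
Log2 change in Tfam+/-Zbp1-/- against WT (horizontal axis) of every tested member of 18 gene lists, with each point a gene, red called higher, blue called lower and grey not called. The black bar is the list's median and the dashed line the median of all genes, 0.12. Leukocyte markers, HOX genes and contractile genes have medians below 0, and limb factors, signalling genes and interferon-stimulated genes have medians to the right of the dashed line.

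The last lists were genes known to differ between mouse substrains, neighbours of the targeted genes, imprinted genes and lipid transporters. Nnt, a mitochondrial transhydrogenase whose gene is broken in some C57BL/6 substrains, had 947 and 928 normalized counts in WT, 1396 and 1472 in the double mutant, 808 and 971 in Tfam+/- and 2070 and 1961 in Zbp1-/-. Its change of 0.61 ± 0.04 was called, but not after rescaling (0.50), without double mutant replicate 2 (0.57) or in the 8-library fit. Ifi202b, an interferon-inducible gene known to differ between mouse strains, was listed at 0 in both WT and both double mutant libraries and at 380 and 238 in Zbp1-/-. Evi2b, named after its values were seen, had 54.9 and 51.5 in WT, 0 and 0 in Zbp1-/- and 30.3 and 27.5 in the double mutant. Whether the strain background differed between the genotypes was not tested. Within 5 Mb of Tfam, 4 of 41 tested genes (9.76%) were called, all higher, namely Tmem26, Rtkn2, Lrrc75b and Gstt1, and within 5 Mb of Zbp1 2 of 46 were called higher and 2 lower (8.70%). These shares lie near the 7.74% of all genes. Of 28 tested imprinted genes, Xlr3b and Dio3 were called higher (7.14%) and Zim1, Usp29 and Nnat lower (10.7%), beside 4.91% and 2.83% of all genes. Dio3, which inactivates thyroid hormone, had 5.73 and 3.62 in WT, 24.8 and 19.7 in Zbp1-/- and 20.1 and 23.7 in the double mutant (2.04 ± 0.41, not called in the 8-library fit). Abca6, 1 of 9 tested ABCA lipid transporters and the single call among them, fell from 50.9 and 47 to 8.81 and 12.2 (-2.13 ± 0.29, called in both fits).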

How the data were processed

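RNA sequencing measured 8 libraries of mouse embryonic fibroblasts, of which the 4 of WT and Tfam+/-Zbp1-/- were compared. Genotypes are those of the labels. Reads were aligned with STAR 2.6.1a to mm10, and Salmon is also named, per the submitters' processing notes. The authors deposited normalized counts per gene, which are a signal of 0 or more and mostly not whole numbers. The sources used here do not give how reads were counted and scaled or whether strand was used, so overlapping genes and near-identical copies are uncertain. Whole reads could not be recovered and no count model was run. The table held 24972 genes, 6652 of them at 0 in all 8 libraries. Names matched RefSeq symbols of GRCm38.p6 for 24407 (97.7%), and coordinates are from there, 1-based. Another 26 names had been turned into dates by a spreadsheet, and the 20 tested are not named.

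Tests used log2(normalized count + 1), which understates changes of low genes. limma 3.58.1 in R 4.3.3 (eBayes with trend) fitted the 4 libraries (2 residual and 14.8 prior degrees of freedom) over 13267 genes, two-sided, with Benjamini-Hochberg adjustment. The fit of all 8 libraries had 4 and 2.77. The trimmed mean of M-values, used for rescaling, left out 30% of ratios and 5% of mean levels at each end. The procedure was tested on simulated counts with independent replicates and no shift of all genes. That setting cannot show how the calls behave with technical replicates or with such a shift. Counting error was taken from the value that recurs most in a library, read as 1 sequencing read, a reading that was not checked.

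Named genes were Tfam and Zbp1, the 12 largest called rises and 12 largest called falls with no overlap between the genotypes and a higher genotype mean of at least 50, up to 4 called members of each list, and 9 defining members of lists. Members, lists and rule were chosen with earlier results of these data known. Comparisons with Tfam+/- and Zbp1-/- would share the WT libraries, so the values of these genotypes are given side by side and not tested. Some genes that the rule would name are not reported here.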

Additional observations from a re-analysis of the deposited data

How the results depend on the processing

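The calls depended mostly on where the error came from and on the fold minimum. With all 8 libraries in the fit 181 genes were called (119 higher, 62 lower) and Tfam (-0.63) was not (adjusted p 0.26), and 56 of 105 named genes lost their call. With no fold minimum 5935 genes were called (4928 higher, 1007 lower), and with a 2-fold minimum 407 (250 and 157), without Tfam (-0.63). A mean of at least 50 left 671 calls (431 and 240), and no filter gave 701, with 30 of the 105 named genes no longer called. Without the mean-variance trend 8 of them were not called. Rescaling took the median change from 0.12 to 0.0083. Mlkl reversed to -0.044 after rescaling and Ripk3 to 0.022 without double mutant replicate 2, neither of them called; without a library Ripk3 was at -0.089 to 0.022. Leaving out each library in turn gave 992 to 1035 calls, 613 to 681 higher and 354 to 379 lower, a median change of 0.12 throughout, Tfam at -0.72 to -0.55 and Zbp1 at -1.67 to -0.68. Zbp1, at -1.17 as reported, was -0.58 with a pseudocount of 5 and -1.59 with 0.1. With the replicate number as a block 1059 genes were called (671 and 388). Deviations of same-numbered WT and double mutant libraries correlated at -0.37 across genes, and the crossed pairing, chosen after seeing the data, gave 1051 calls (666 and 385). The labels do not say whether same-numbered libraries share anything beyond the number. With 1 mean per genotype, an alternative also chosen after seeing the data, 1238 genes passed 1.5-fold with no test (770 and 468). The replicate spread of these 2 genotypes covers little beyond counting error, which limits what the adjusted p-values say about other cultures.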
